A study of Mus musculus with 10 samples.

Results

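The genes described here are 8 transcription regulators of the anterior embryo and head organiser: Otx2, Otx1, Hesx1, Lhx1, Gsc, Hhex, Six3 and Ldb1. They were taken by symbol from the 21900 protein-coding genes of the mouse annotation, and each was given the OTX2 peaks whose centre lay within 50 kb of either gene end on the mm10 build. This collected 54 peaks in definitive endoderm (DE) and 6 peaks in epiblast stem cells (EpiSCs), and no peak was counted for more than 1 of the genes. A second assignment used the rows that name the gene as nearest in the authors' deposited table, which held 19 DE rows and 2 EpiSC rows.

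OTX2 binding had been mapped by CUT&RUN, in which an antibody brings a protein A/G-linked nuclease to its target in permeabilised cells and the released DNA is sequenced. The antibody recognised the HA epitope of tagged OTX2 in the mouse line 7H OTX2-dTAG-EGFP (BL6/129 hybrid), so both cell states carried the same tagged Otx2 and came from 1 line. The EpiSC samples (2 HA and 3 IgG, 500000 cells each) were kept in N2B27 medium to which Activin A (20 ng/ml), FGF2 (12.5 ng/ml) and NVP (175 nM) had been added. The tagged DE samples (2 HA and 1 IgG) were EpiSCs differentiated in CDM, first for 16 h in Activin A at 40 ng/ml plus CHIR at 3 µM and then for 24 h in Activin A at 100 ng/ml plus LDN at 100 nM, after which live cells were sorted. DE of the untagged parental line gave 1 HA and 1 IgG sample. The HA replicates of a state are represented by 1 list of intervals, with no height, score or depth, so no value below has a replicate spread and none was tested. The lists hold no expression values, so the cell types could not be checked against marker genes.

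Anterior identity in the early embryo depends on signalling centres, among them the anterior visceral endoderm and the anterior definitive endoderm and mesendoderm that replace it beneath the future forebrain. OTX2 and its close relative OTX1 are homeodomain factors of this region. LHX1 is a LIM-homeodomain factor that acts with the adaptor LDB1, while GSC and HESX1 are homeodomain proteins best known as repressors. HHEX marks anterior endoderm and is needed for the organs derived from it, and SIX3 is a forebrain regulator that restrains WNT signalling.

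All 8 genes had at least 1 DE peak, and 4 of them (Otx1, Hesx1, Gsc and Ldb1) also had an EpiSC peak. Among all protein-coding genes 82.8% had a DE peak and 40.8% an EpiSC peak at the same distance, so neither count stands far from the background. Otx2, Lhx1, Hhex and Six3 had DE peaks and no EpiSC peak, a pattern shared by 42.3% of protein-coding genes. The number of DE peaks per gene was higher than the background, with a median of 7, against 3 over all protein-coding genes (quartiles 1 and 6). The median in EpiSCs was 0.5, against 0.

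**Figure D1:**
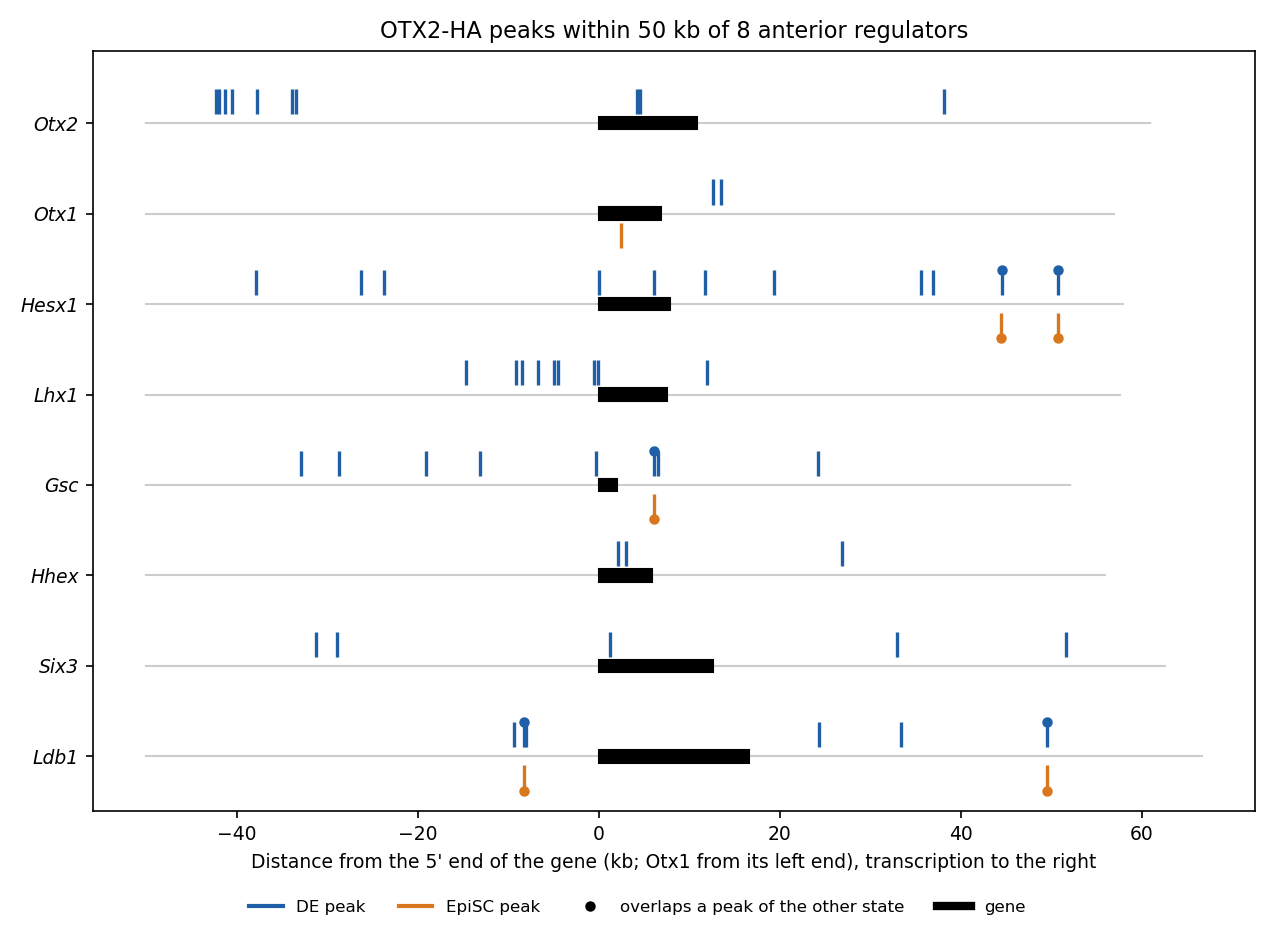
Map of the OTX2-HA peaks at the 8 genes. The horizontal axis is the distance in kb from the 5′ end of each gene, or from the left end for Otx1; black bars are genes, blue ticks above the line DE peaks, orange ticks below it EpiSC peaks, and a dot marks a peak that overlaps one of the other state. Otx2 and Lhx1 have dense groups of DE ticks, and orange ticks occur at Otx1, Hesx1, Gsc and Ldb1.

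The 2 sequences shown first are the promoters of the group with the most bases under a DE peak. They are the 250 bases before the annotated start of Lhx1 and of Gsc on the minus strand, from RefSeq on GRCm38.p6 (the assembly behind mm10), read 5′ to 3′ in the direction of the gene. The Lhx1 stretch is chr11:84525535-84525784 and the Gsc stretch is chr12:104473237-104473486. Capitals mark the bases under a DE peak, and no EpiSC peak touched either stretch. The letters are those of the reference genome, not of the hybrid line.
Lhx1: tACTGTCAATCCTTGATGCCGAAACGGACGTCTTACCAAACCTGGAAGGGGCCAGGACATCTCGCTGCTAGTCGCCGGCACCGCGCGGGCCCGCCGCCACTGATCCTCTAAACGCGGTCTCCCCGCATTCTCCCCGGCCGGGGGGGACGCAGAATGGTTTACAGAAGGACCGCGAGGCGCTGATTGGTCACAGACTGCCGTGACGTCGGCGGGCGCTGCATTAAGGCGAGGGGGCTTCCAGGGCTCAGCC
Gsc: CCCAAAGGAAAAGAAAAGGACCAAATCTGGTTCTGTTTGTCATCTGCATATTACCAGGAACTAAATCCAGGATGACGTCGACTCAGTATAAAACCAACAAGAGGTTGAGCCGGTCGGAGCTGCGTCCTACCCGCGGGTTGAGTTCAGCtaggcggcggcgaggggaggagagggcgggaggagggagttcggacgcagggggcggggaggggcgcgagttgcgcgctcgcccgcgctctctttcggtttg
At Lhx1 the peak ran from position -249 to 50, the last base of the window, so 249 of the 250 printed bases lay under it. At Gsc it covered the 148 bases from -250 to -103 and stopped short of the start.

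Both peaks also lay on the start of a long non-coding RNA gene transcribed away from the regulator. Lhx1os starts 126 bp from Lhx1 on the opposite strand, and 1 DE peak (chromosome 11, 84525485 to 84525783, 299 bp) covered both starts. Gm10000 starts 294 bp from Gsc, and the peak there (chromosome 12, 104473339 to 104473775, 437 bp) covered the Gm10000 start and not that of Gsc.

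Promoter windows of 250 bases before and 50 after a start were given for 7 of the 8 genes, all but Otx1, with 12 windows in all. A DE peak overlapped a window of 4 genes (Otx2, Hesx1, Lhx1 and Gsc), compared with 27.3% of the 17492 protein-coding genes that have one. An EpiSC peak overlapped a window of none of the 7 (3 counts would be 42.9%, and the upper limit of the 95% Wilson interval is 35.4%), against 9.79% of all such genes, so 7 genes are too few to tell the share from the background. The overlaps at Otx2 and Hesx1 were slight. The Hesx1 window had 9 bases under a peak, beginning 41 bp after the start. Of the 4 Otx2 windows, the one at the innermost start had 43 bases under a peak, from -250 to -208. No peak touched the windows of Hhex, Six3 or Ldb1.

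The core letters of the OTX2 motif, TAATCC, were searched on both strands (as TAATCC and GGATTA). Of all 32851 promoter windows 7.06% held them, as did 7.98% of the 6027 windows under a DE peak and 9.43% of the 2079 under an EpiSC peak. Among the 12 windows of the 8 genes, 1 held a match, that of the third Otx2 start at -211 to -206, which was under no peak. The looser letters TAATCN were held by 22.0% of all windows, 18.3% of those under a DE peak and 20.2% of those under an EpiSC peak, an order unlike that of TAATCC. With them the Hesx1 window had a match at -136 and another at -90, both outside the peak. Neither printed promoter held either form. A match is only a description of letters, and the sequence of the peaks away from promoters was not analysed here.

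In base composition the Lhx1 and Gsc windows, with 65.7% and 60.3% G or C, were close to windows under a DE peak in general (median 60.7%, quartiles 55.3 and 66.0%). The Hesx1 window had 33.7%, below the lower quartile of all windows (45.7%). The Hhex window had 75.7% and the outermost Ldb1 window 71.3%, and both were free of peaks.

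**Figure D2:**
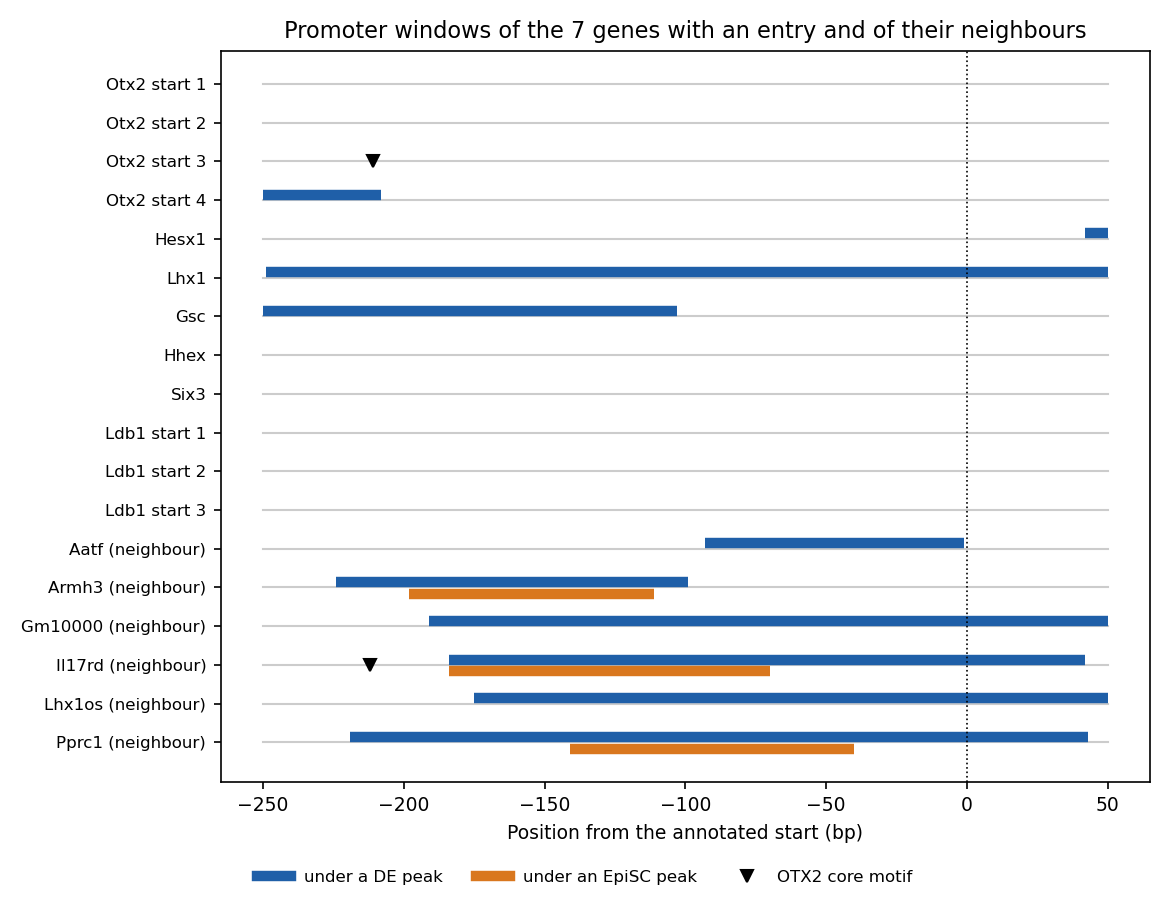
Promoter windows of 7 of the genes and of 6 neighbours whose window touches one of the peaks. The horizontal axis is the position in bp from the annotated start; blue bars are under a DE peak, orange bars under an EpiSC peak and black triangles are TAATCC matches. The blue bar of Lhx1 spans nearly the whole window, and orange bars occur at the neighbours Armh3, Il17rd and Pprc1 only.

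Otx2 itself (chromosome 14, 48656781 to 48667644) is the known case, with 10 DE peaks and no EpiSC peak. Its 7 peaks upstream of the gene, within the antisense gene Otx2os1, filled 1986 bp of a stretch of 9095 bp. The widest of these were 417, 384 and 316 bp, at the 97.3, 96.3 and 92.1 percentiles of width in the DE list. Of all 10 peaks, 7 were wider than the upper quartile of the DE list (209 bp). In the authors' deposited table the 7 upstream peaks are named for Gm25380 and only the 2 peaks inside the gene for Otx2.

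Otx1 (chromosome 11, 21994764 to 22001651), the paralogue, differed from Otx2 in having few DE peaks and an EpiSC peak. The EpiSC peak lay inside the gene (21997103 to 21997241, 139 bp) and overlapped no DE peak. It was the only EpiSC-only peak among the 6 of the group. The nearest DE peak was 10009 bp away, at 22007250 to 22007561 (312 bp), and another followed at 22008108 to 22008318 (211 bp). Both DE peaks lay within the neighbouring gene Ehbp1, and the authors' deposited table names Otx1 as their nearest gene. That table names Otx1 for 2 further DE peaks, 71.8 and 77.3 kb from its right end, also within Ehbp1. Its 2 DE peaks within 50 kb were fewer than the median of all protein-coding genes, and 70.9% of those genes had as many or more.

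The LIM-homeodomain gene Lhx1 (chromosome 11, 84517975 to 84525534) was flanked by 9 DE peaks but by none of EpiSCs. Apart from 1 peak of 93 bp in the neighbouring gene Aatf, 4427 bp past the end of Lhx1, all lay on the upstream side. Beyond the promoter peak they stood at 0.58, 4.49, 4.91, 6.67, 8.48, 9.10 and 14.6 kb from the start, with widths of 183, 373, 308, 94, 193, 201 and 171 bp. The first 6 of these lay within Lhx1os, which the authors' deposited table names as nearest for all 7. Lhx1 itself is named for the promoter peak alone.

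The density of peaks beside Lhx1 matched that beside Otx2. Each gene had 7 DE peaks with centres within 10 kb of one another, spanning 9248 bp at Lhx1 and 9095 bp at Otx2. In the whole genome 16 places held at least 7 DE peaks in 10 kb, and 45 protein-coding genes (0.205%) had such a place within 50 kb. The figure of 7 was chosen after these counts were seen. The most found beside any gene was 9, and the other 6 genes of the group had 2 or 3.

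Ldb1 (chromosome 19, 46031525 to 46048145), the adaptor that partners LHX1, had 6 DE and 2 EpiSC peaks, none of them inside the gene. Both EpiSC peaks were shared with DE, and both lay on promoters of other genes. The first (45998599 to 45998686, 88 bp) fell in the window of Armh3, and the second (46056398 to 46056499, 102 bp) in that of Pprc1. The DE peaks over them were wider, at 126 and 262 bp, and contained them whole. Of the 6 DE peaks the authors' deposited table names Ldb1 for 1, of 117 bp, 7729 bp past the end of the gene.

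Hesx1 (chromosome 14, 26994419 to 27002329), which encodes a homeodomain repressor needed for the forebrain and pituitary, had 11 DE peaks within 50 kb, the most in the group at that distance, of which 4 were within 20 kb. A DE peak of 122 bp (26994329 to 26994450) covered its left end, the 5′ side. A second of 302 bp (27000403 to 27000704) lay 41 bp after the start in the promoter table, which is 5943 bp further in. The widest, 433 bp, lay 3782 bp past the gene (27005895 to 27006327), followed by 1 of 205 bp at 11.5 kb. These 4 are the peaks named for Hesx1 in the authors' deposited table, and all 4 were DE-only.

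The 2 EpiSC peaks counted at Hesx1 belonged to the other end of its window, beside Il17rd, a membrane antagonist of FGF signalling. One (27038817 to 27038931, 115 bp) fell in the Il17rd promoter window and the other (27045021 to 27045346, 326 bp) inside that gene. Both were shared with DE, where the peaks measured 226 and 362 bp. No EpiSC peak was therefore present from 50 kb upstream of Hesx1 to 36.5 kb past its end.

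Gsc (chromosome 12, 104471209 to 104473236), the classical organiser homeobox gene, had 8 DE peaks and 1 EpiSC peak. The EpiSC peak (104467075 to 104467278, 204 bp) lay 4032 bp past the end of the gene, in no annotated gene. A DE peak of 407 bp (104466947 to 104467353) contained it whole. It was the only shared peak of the group whose nearest gene is a member in the authors' deposited table. The other wide DE peaks were the promoter peak of 437 bp and those of 461, 381 and 272 bp at 13.2, 19.1 and 28.7 kb upstream, all 3 within Gm10000 by position. The authors' deposited table names Gm1000 for these 3. All 5 exceeded the upper quartile of width in the DE list, and 4 of them were above its 96th percentile, namely those of 381 bp (96.1), 407 bp (97.1), 437 bp (97.8) and 461 bp (98.3). The remaining 3 peaks were 77, 100 and 113 bp wide.

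Hhex (chromosome 19, 37434841 to 37440731) had few peaks, but among them the widest of the group. This peak of 558 bp (37437604 to 37438161) lay inside the gene, 3.04 kb from its start, at the 99.3 percentile of the DE list. A second intragenic peak of 186 bp stood at 2.12 kb from the start (37436866 to 37437051). The third, of 75 bp, was 21.0 kb past the gene. Of all protein-coding genes 58.0% had as many DE peaks as Hhex. A further 12 DE peaks lay between 50 and 100 kb from Hhex, and the share of genes with as many there was not counted. The authors' deposited table names other genes for all 12, Exoc6 for 6 of them. No EpiSC peak was found within 100 kb.

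Six3 (chromosome 17, 85613608 to 85626191) was assigned 5 peaks, all from DE. All 5 were narrow, at 75, 90, 103, 115 and 115 bp, and none exceeded the median of the DE list (138 bp). One lay inside the gene, 1.29 kb from its 5′ end and also within Six3os1. The start in the promoter table is 7226 bp further in than that end, which puts the peak 5.93 kb before it. The others were 20.4 to 39.0 kb outside the gene, the farthest within the neighbouring homeobox gene Six2. Six3 was the only one of the 8 genes without a DE peak above the upper quartile of width.

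**Figure D3:**
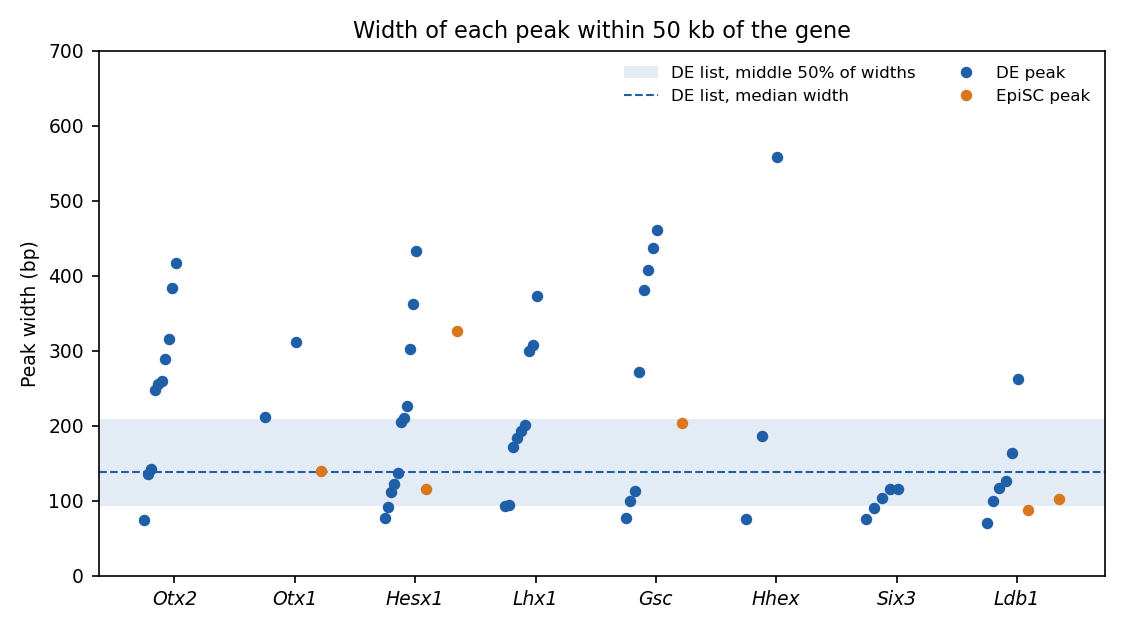
Width in bp of each peak within 50 kb of each gene, with DE peaks in blue and EpiSC peaks in orange. The shaded band is the middle 50% of all DE peaks (93 to 209 bp) and the dashed line their median (138 bp). The Hhex peak of 558 bp is the highest point and all Six3 points lie below the line.

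Over the whole group DE peaks had a median width of 189.5 bp (quartiles 111.5 and 301.25 bp), compared with 138 bp (93 and 209 bp) in the whole list. Of the 54 peaks, 24 were wider than the list's upper quartile (44.4%, 95% Wilson interval 32.0 to 57.6%, which covers counting error only), against 24.9% of the list. Those 24 were divided as 7 at Otx2, 5 each at Hesx1 and Gsc, 3 at Lhx1, 2 at Otx1 and 1 each at Hhex and Ldb1. Neighbouring peaks are not independent, and merging over 50 bp can join them into wider intervals. Width was used because the lists give no height, and whether it follows binding strength was not tested. The 6 EpiSC peaks had a median width of 127 bp, against 141 bp in the EpiSC list.

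Sharing between the states was near the background. A peak was called shared from 1 bp of overlap, which held for 5 of the 6 EpiSC peaks (83.3%, Wilson interval 43.6 to 97.0%), against 78.8% of the EpiSC list. Of the 54 DE peaks 5 overlapped an EpiSC peak (9.26%, 4.02 to 19.9%), against 11.7% of the DE list. Of the 5 shared EpiSC peaks, 3 lay on promoter windows of neighbours (Il17rd, Armh3 and Pprc1), 1 inside Il17rd and 1 beyond Gsc. The DE peak contained the EpiSC peak whole in all 5 cases. Neither promoter position nor containment was counted over all shared peaks of the lists. They therefore cannot be called particular to these genes.

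Each of the 8 genes had more DE than EpiSC peaks, as had 79.2% of protein-coding genes. The DE list is 6.76 times as long as the EpiSC list, and the peaks at the 8 genes stood in a ratio of 9. When only the 6319 widest DE peaks were used, as many as the EpiSC list holds, Otx2 and Gsc kept 5 DE peaks each, Hesx1 and Lhx1 3 each, Otx1, Hhex and Ldb1 1 each, and Six3 none. Then 7 genes had a DE peak, against 34.7% of all genes, and 5 had more DE than EpiSC peaks, against 14.5%. The direction turned at Ldb1, with 1 DE and 2 EpiSC peaks, while Otx1 had 1 of each and Six3 none of either. How far read depth contributes to the longer DE list was not tested, since the lists do not give it.

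**Figure D4:**
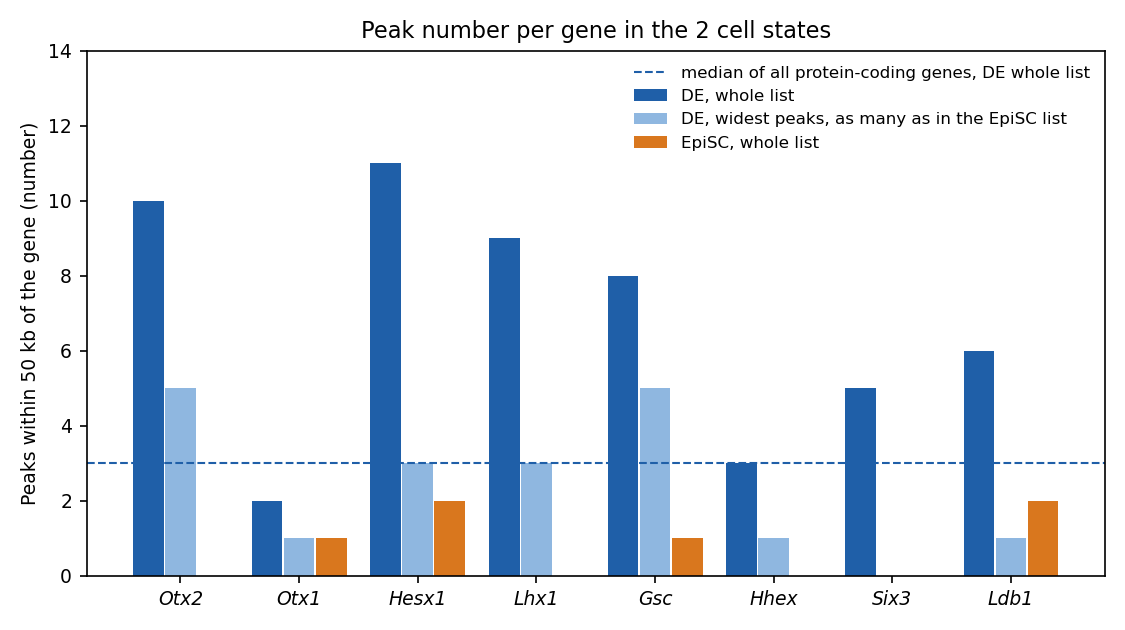
Number of peaks within 50 kb of each gene. Dark blue bars are the whole DE list, light blue bars its 6319 widest peaks and orange bars the EpiSC list, and the dashed line is the median of all protein-coding genes in the whole DE list (3). Light blue bars exceed orange bars at Otx2, Hesx1, Lhx1, Gsc and Hhex, and no bar at all means 0 peaks.

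By number of DE peaks within 50 kb the genes ranked Hesx1 (11), Otx2 (10), Lhx1 (9), Gsc (8), Ldb1 (6), Six3 (5), Hhex (3) and Otx1 (2). Neighbours in this order differ by at most 2 peaks, and without replicate lists the error of the order is unknown. The order depended on the distance. Within 20 kb Lhx1 was first with 9, followed by Gsc and Ldb1 with 5 each, Hesx1 with 4, Otx2, Otx1 and Hhex with 2 each and Six3 with 1. Within 100 kb Hesx1 had 16, Lhx1 and Hhex 15 each, Gsc 12, Ldb1 11, Otx2 10, Six3 9 and Otx1 4. Between 50 and 100 kb 7 of the 8 genes had more DE than EpiSC peaks, against 71.7% of protein-coding genes. At least 8 DE peaks within 50 kb, a limit chosen after the counts were seen, were found at 4 genes, compared with 13.4% of protein-coding genes. Only 4.68% of protein-coding genes had as many as Hesx1, 6.57% as many as Otx2 and 9.38% as many as Lhx1. By total length under peaks the first was Otx2 with 2519 bp (1.39% of genes had as much), followed by Hesx1 with 2276 bp (2.11%), Gsc with 2248 bp (2.18%) and Lhx1 with 1915 bp (4.16%). Six3 was last with 498 bp, which 48.1% of genes reached.

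**Figure D5:**
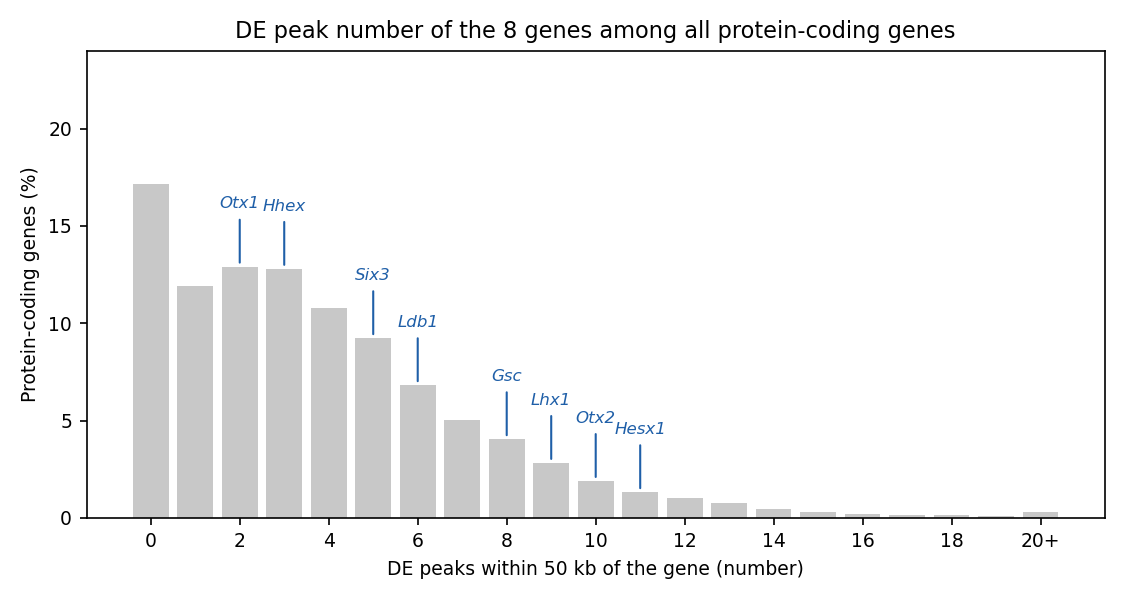
Share of all protein-coding genes, in percent, by the number of DE peaks within 50 kb, with the 8 genes marked at their own number. The last bar holds all genes with 20 or more peaks. Otx1 and Hhex stand in the middle of the distribution, and Gsc, Lhx1, Otx2 and Hesx1 in its right tail.

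The pair of counts (DE and EpiSC) was not peculiar to any of the genes. The number of other protein-coding genes with the same pair was 36 for Hesx1, 67 for Otx2, 140 for Lhx1, 198 for Gsc and 255 for Ldb1, and it was 685 or more for Otx1, Six3 and Hhex.

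The 2 assignments gave different pictures. Of the 54 DE peaks within 50 kb, 17 are named for the gene itself in the authors' deposited table and 37 for another gene, and the other 2 of the 19 named rows are the distant Otx1 peaks. Median width was 211 bp for the 17 and 171 bp for the 37. Every one of the 8 genes is named for at least 1 DE peak, as are 50.4% of protein-coding genes, whereas only Otx1 and Gsc are named for an EpiSC peak, 1 each, against 15.3%. Otx1, Hesx1 and Gsc are named for 4 DE peaks each, a number reached by 8.54% of protein-coding genes.

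Background was measured in the control lists. None of the 202, 149 and 200 IgG peaks of EpiSC replicates 1, 2 and 3 lay within 100 kb of the 8 genes (3 counts would be 1.49% of replicate 1 and 2.01% of replicate 2). All 149 intervals of replicate 2 are also in replicate 3, so those lists are not independent. Of the 14 HA peaks of the untagged parental DE, none lay there either (3 counts would be 21.4%). Of all protein-coding genes 1.67% had a peak of any of these lists within 100 kb, so lists this short say little about 8 genes. With no control peak there, no HA peak at the 8 genes could overlap one, so the 0 of 54 in DE adds no information. IgG lists of DE were not used here.

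A list of 27 other anterior regulators was counted in the same way. At least 1 DE peak was found at each of the 27 counted (82.8% of all genes), and an EpiSC peak at 14 (40.8%), with medians of 6 and 1 peaks. The totals were 172 DE and 34 EpiSC peaks, a ratio of 5.06. By group the ratio was 9.67 in the related homeodomain genes (58 and 6 peaks), 6 in the LIM complex partners (42 and 7), 4.67 in the forkhead genes (14 and 3) and 3.22 in the secreted or membrane genes (58 and 18). The ratio was 6.76 for the whole lists and 9 at the 8 genes, and no difference between these ratios was tested. The 27 genes and the 8 are not fully separate, since the DE peak counted at Six3 within Six2, a gene of this list, counts in both. Among 5 partners of the LIM complex, all had a DE peak and 2 an EpiSC peak, and the highest count of the list was at Ssbp3, an LDB1-binding partner, with 20 DE and 5 EpiSC peaks. Ldb2, the paralogue of Ldb1, had 13 and none. The window holds the whole gene, so a longer gene has more room for peaks. Gene length was not allowed for, and counts from gene starts were not made for this list. All 11 related homeodomain genes had a DE peak and 3 an EpiSC peak, whereas of 9 secreted or membrane genes all had a DE peak and 7 an EpiSC peak. Both forkhead genes had peaks in each state, Foxa2, a pioneer factor of endoderm, with 11 DE and 2 EpiSC peaks. Lefty1, a secreted Nodal antagonist, had 10 and 3. The differences between these groups were not tested.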

How the data were processed

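The deposited lists give interval starts and ends on mm10. Per the submitters' processing notes, Bowtie2 2.3.5.1, SAMtools 1.14, Picard 2.26.10, bedtools 2.30 and MACS2 2.2.6 were used; the calling threshold and the control of the HA lists are not given in the sources used here. Per the file names, the HA lists were merged over 50 bp, and the parental list came from trimmed reads without duplicates; its name also carries a range of 20 to 120, with no unit, and a tag q5 that is not explained there. The merged lists and the tables with nearest genes hold the same intervals (42711 in DE, 6319 in EpiSC). Sample labels tie each list to both HA replicates of its state; 1 EpiSC and 1 IgG label also name the DE list, which was read as a slip.

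Starts were converted to 1-based positions, and centres were assigned to genes of RefSeq for GRCm38.p6 with Python 3.11.15, numpy 2.4.6 and pandas 2.3.3. Strand came from the promoter table, and exon annotation was not used here. Counting was checked against a direct count on simulated peaks. The columns marking regulated genes were not used. The genes, lists and measures were chosen with earlier results of these data known. Genes named were the 8, the neighbours at their peaks, and from the other list those with the most DE peaks; the promoters of that list were named after their values were seen, and 1 gene of it is not reported here, so its counts cover 27 genes. No test was possible with 1 list per state. Alternatives were other distances, assignments, widths, list lengths, overlaps and leaving out control regions.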

Additional observations from a re-analysis of the deposited data

How the results depend on the processing

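No paired analysis was possible because each cell state has a single list for both HA replicates, and for the same reason no replicate could be left out. The main values were 54 DE and 6 EpiSC peaks, 5 shared in each list, 8 genes with a DE peak, 4 with an EpiSC peak, and 27 and 14 of the other anterior genes. At 20 kb from a gene end the counts were 30 DE and 3 EpiSC peaks, 2 shared in each list. At 100 kb they were 92 DE peaks, 8 shared in each list, and a median EpiSC width of 102 bp. By nearest gene in the authors' deposited table they were 19 DE and 2 EpiSC peaks, 1 shared in each, with 2 genes that had an EpiSC peak. With the widest DE peaks they were 19 DE peaks, 3 shared in each list, a median DE width of 362 bp by construction, and 17 other anterior genes with a DE peak. Over 10 alternatives 208 values were computed. Of these, 64 were set aside because they could not move by construction. They were those of the merged lists (the same intervals), of the removal of control regions (none overlaps a peak here) and of EpiSC peaks under the shorter DE list. Of the other 144, 95 stayed within 1.5 times the main value (widths within the quartiles) and 49 did not. The 95 include further values that could not move. An alternative kept only peaks of at least 78 bp, the least width in the EpiSC list, so it could remove no EpiSC peak. At 20 kb, genes without an EpiSC peak in the main count could not gain or lose any. The 95 therefore overstate how far the values held. Depth is unknown, so weak binding in EpiSCs below the calling threshold cannot be told apart from none.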

Other observations

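Between 50 and 100 kb from the gene ends Hhex had 12 DE peaks, 5 on the left and 7 on the right, and no EpiSC peak. Lhx1 had 6 DE peaks and its first EpiSC peak, which was shared with DE, all on the side of Lhx1os. Hesx1 had 5 DE and 2 EpiSC peaks, all named for Il17rd in the authors' deposited table, and both EpiSC peaks were shared. Otx2 had none in either state, so all of its peaks within 100 kb lay within 50 kb.

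Of the 27 other anterior genes 21 had a promoter window. A DE peak lay on the window of 6 of them (Ssbp2, Six2, Emx2, Cer1, Dkk1 and Fzd5), against 27.3% of protein-coding genes, and an EpiSC peak on none, against 9.79%. Cer1 and Dkk1 encode secreted antagonists of Nodal or BMP and of WNT signalling, and Fzd5 a WNT receptor. At the 3 genes the counts within 50 kb were 6 DE and 2 EpiSC peaks for Cer1, 7 and 1 for Dkk1 and 7 and 1 for Fzd5.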
